A study of Mus musculus with 4 samples.

Results

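The 10 cytokine genes Il12a, Il12b, Il23a, Ebi3, Il27, Il6, Il10, Il15, Il1b and Tnf, whose products are secreted or displayed by activated DC, were examined for Runx3 binding in splenic CD4+ DC. They are 10 of the 22367 protein-coding genes in the GENCODE M1 annotation of mm9, and were listed by name, with no threshold on their binding, although earlier results of these data were known. For each gene, the peaks were taken whose centre lies in the gene body or within 50 kb of it, and this gave 25 of the 15121 peaks of the deposited list. The cells were CD11chiMHCII+CD4+ DC, enriched from spleen by CD11c magnetic selection, sorted by FACS and then fixed and frozen, and came from C57BL/6 mice, about 15 of which were pooled, with age not given in the labels. The label of 1 control sample writes the strain as C57BL/7. Chromatin of 2 biological repeats was precipitated with a polyclonal Runx3 antibody made by the authors' laboratory, and 2 inputs, which are fragmented chromatin of the whole cell extract, served as control. MACS2 was run once on both repeats against both inputs, so each peak has 1 position and 1 score for the pooled samples. No spread between repeats can therefore be given for any value below and no difference was tested. The list holds no read counts per sample, so the depth behind a single peak is unknown, and no source names the unit of the score. A higher score marks a stronger call, and a gene without a peak is one for which none was called at this depth. The list holds no expression, so neither the identity of the sorted cells nor the activity of these genes could be checked against marker genes.

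Runx proteins are transcription factors that bind DNA through the Runt domain, together with the partner CBFβ, at a short hexamer. DC sense microbes and release cytokines that direct the T cells they prime. IL-12 and IL-23 share the subunit encoded by Il12b and differ in the second chain, encoded by Il12a and Il23a. Ebi3 encodes a relative of the shared subunit and pairs with the product of Il27. IL-6, IL-1β and TNF are inflammatory mediators, IL-10 restrains inflammation, and IL-15 is displayed on the DC surface and sustains NK cells and memory CD8+ T cells.

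None of the 25 Runx3 peaks was centred at the start of a cytokine gene, 12 lay upstream, 12 downstream and 1 inside its gene. A peak was found in the windows of 8 of the 10 genes, all but Il12a and Il10, where 62.6% of all protein-coding genes had 1 by the same rule. At their own start sites, with a limit of 1 kb, 0 of the 10 had a peak centre, against 24.9% of all protein-coding genes. In the gene body a peak was centred for 1 of the 10, Il15, against 23.2%. The 10 genes are mostly short, and of the 7377 protein-coding genes between 1945 and 13971 bp long, which is the range of the members other than Il15, 15.5% had a peak in the body and 23.6% had 1 within 1 kb of a TSS. With 10 genes, these counts are given as a description.

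**Figure D1:**
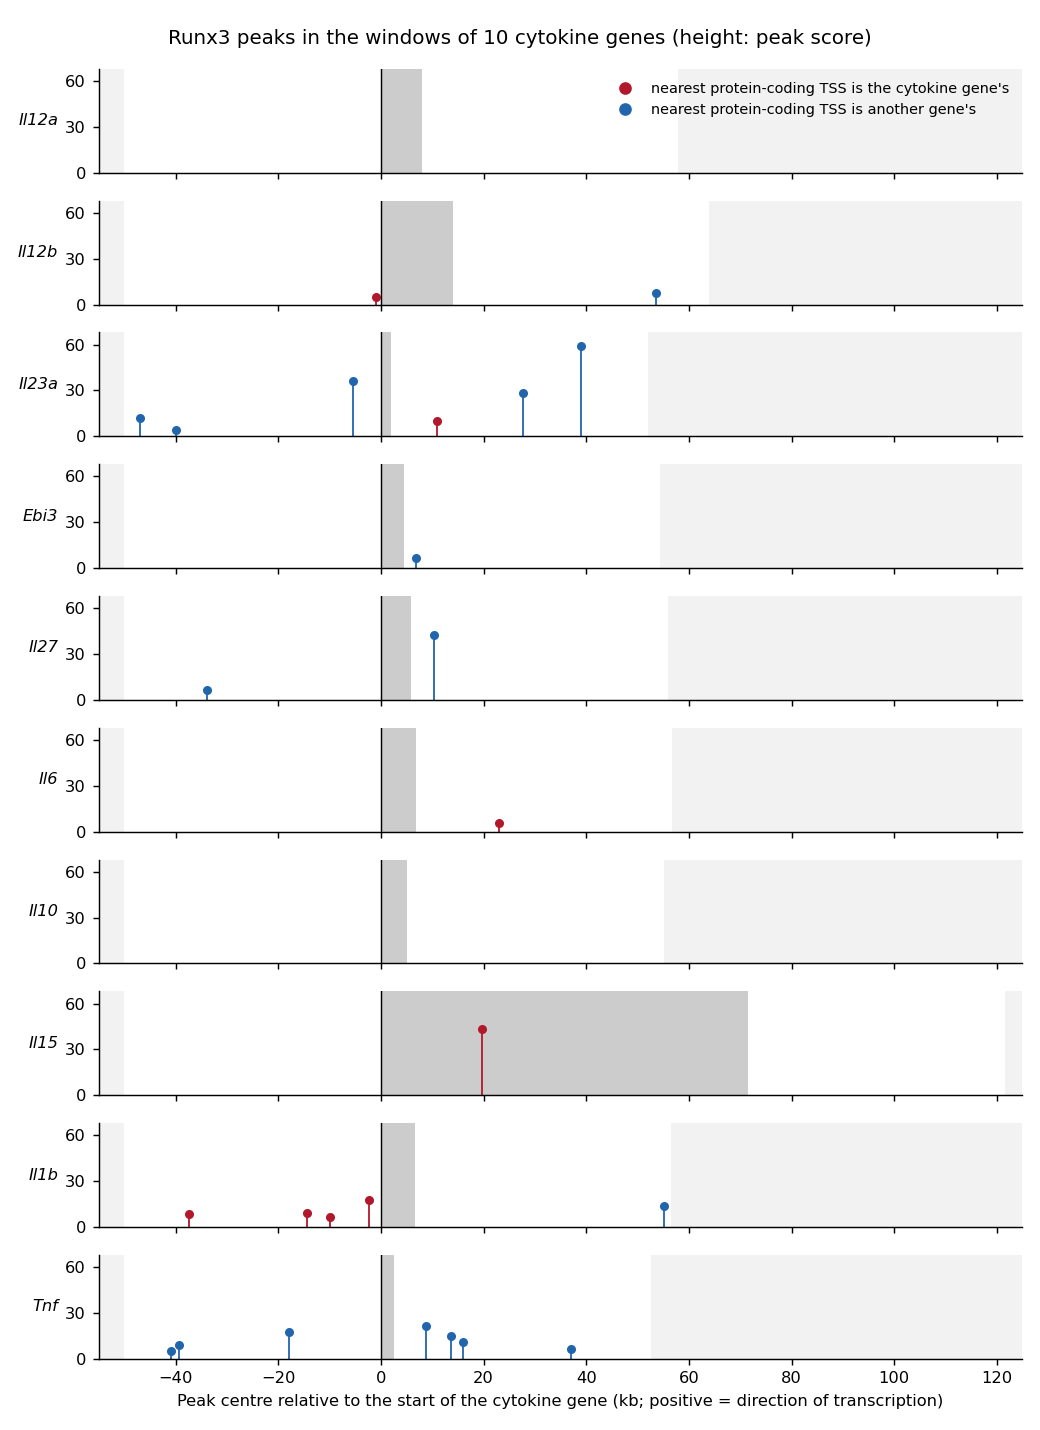
Positions and scores of the 25 Runx3 peaks at the 10 cytokine genes. The x axis is the distance of the peak centre from the start of the gene in kb, oriented along its transcription, and the height is the peak score; dark grey marks the gene body, pale grey lies outside the window, red peaks have their nearest protein-coding TSS in the cytokine gene and blue peaks in another gene. Il12a and Il10 are empty, Il15 alone has a peak in its body, and 5 of the 6 peaks of Il23a and all 7 of Tnf are blue.

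The peaks around the genes were counted by the TSS closest to them. For 8 of the 25 peaks, or 32%, the nearest protein-coding TSS was that of the cytokine gene, and over all protein-coding genes and the peaks of their windows this share was 33.2%. These 8 peaks belonged to 5 of the genes, Il12b, Il23a, Il6, Il15 and Il1b, and 35.5% of all protein-coding genes had a peak of this kind. The other 17 peaks were nearer to a neighbour, and 10 of them lay within 1 kb of the neighbour's TSS. These were the only ones of the 25 within 1 kb of a protein-coding TSS, where 34.6% of all peaks were that close to 1. The 8 peaks had scores from 4.79 to 43.6 with a median of 8.83, the 17 had a median of 12.0, and the median of the whole list was 12.1. Distances to the start of the cytokine gene ran from 1029 to 55164 bp. Within 5 kb there were 2 peaks, between 5 and 10 kb there were 4, between 10 and 20 kb 7, between 20 and 50 kb 10, and 2 lay farther away.

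**Figure D2:**
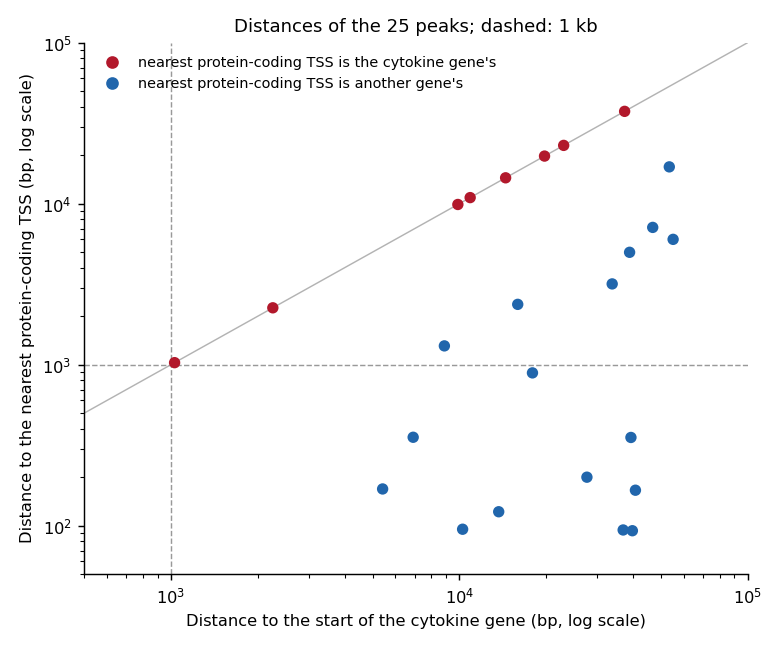
Distance of each of the 25 peaks to the start of its cytokine gene (x axis, bp, log scale) and to the nearest protein-coding TSS of any gene (y axis, bp, log scale). Red points on the diagonal are the 8 peaks whose nearest TSS is the cytokine gene's, and the 10 blue points below the horizontal dashed line lie within 1 kb of the TSS of a neighbour; no point lies left of the vertical dashed line at 1 kb. Of all peaks 34.6% lie within 1 kb of a protein-coding TSS.

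Among the genes of the IL-12 family, Il12a (ENSMUSG00000027776, chromosome 3, 68494566 to 68502469, plus strand) had no peak. The nearest peak centre lay 52575 bp upstream, just beyond the limit, and scored 3.17, at the percentile 2.67 of the list. On the downstream side the first peak was 118332 bp from the Il12a start.

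Il12b (ENSMUSG00000004296, chromosome 11, 44213565 to 44227535, plus strand) had the peak closest to the start of any of the 10 genes. It ran from 44212358 to 44212715, had its centre 1029 bp upstream of the TSS, and its score was 4.79, at the percentile 11.1. The other Il12b peak, from 44266913 to 44267231, scored 7.84 and lay 53507 bp downstream of the Il12b TSS. Its nearest protein-coding TSS, at 16928 bp, was that of Ublcp1, a gene for a phosphatase that acts on the proteasome. A noncoding transcript of Ublcp1 started nearer, at 4672 bp. Both scores were below the list median. The 200 bp around the centre of the upstream peak, chr11:44212437-44212636 on the plus strand of mm9, are shown because this is the peak nearest to a cytokine promoter. In this and the sequences below, capitals mark the RUNX hexamer TGTGGT or its variant TGCGGT, or their reverse complements ACCACA and ACCGCA. The Il12b sequence holds neither, had a GC content of 63% and contained 10 CpG dinucleotides.
Il12b upstream peak: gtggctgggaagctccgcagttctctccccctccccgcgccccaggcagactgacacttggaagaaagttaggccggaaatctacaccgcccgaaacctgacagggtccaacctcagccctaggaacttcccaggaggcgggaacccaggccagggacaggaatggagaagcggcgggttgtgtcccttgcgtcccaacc

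Il23a (ENSMUSG00000025383, chromosome 10, 127733196 to 127735140, minus strand) lies in a gene-rich stretch and had 6 peaks. The nearest to its start, from 127740183 to 127740938, scored 36.1 and was centred 5420 bp upstream of Il23a, but 169 bp inside Pan2, which encodes a deadenylase of mRNA. The strongest peak near any of the 10 genes, from 127695942 to 127696409, scored 59.1, at the percentile 95.4. It lay 38965 bp downstream of the Il23a start and 4988 bp from the TSS of Apon, an apolipoprotein gene. Another, from 127707153 to 127707705, scored 28.6 and was centred 200 bp upstream of Stat2, which encodes a transducer of type I interferon signals. The peaks at Cs, the citrate synthase gene, scored 4.23 at 93 bp from the TSS and 12.0 at 7122 bp. A single peak had Il23a as its nearest TSS. It ran from 127724075 to 127724393, was centred 10906 bp downstream of the Il23a start within the body of Stat2, and scored 9.84. The stronger peaks of this window thus lay closest to other genes.

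Ebi3 (ENSMUSG00000003206, chromosome 17, 56092046 to 56096444, plus strand) had 1 peak, from 56098794 to 56099134, with a score of 6.40. It was centred 6918 bp downstream of the Ebi3 start and 354 bp inside Ccdc94, and no peak lay upstream of Ebi3 for 215915 bp. Il27 (ENSMUSG00000044701, chromosome 7, 133732524 to 133738455, minus strand) had 2 peaks. The peak from 133727868 to 133728506 scored 42.6, at the percentile 90.4, and was centred 10268 bp downstream of the Il27 start, 95 bp upstream of a TSS of Cln3, which encodes a lysosomal membrane protein. With 1 TSS per gene its nearest was that of Apobr, an apolipoprotein B receptor gene. The other, from 133772223 to 133772506, scored 6.57 and lay 33909 bp upstream of Il27. Its nearest protein-coding TSS, at 3174 bp, was that of Nupr1, a stress-induced gene, and a noncoding transcript of Nupr1 started at 1840 bp. For the pair of genes whose products form IL-27, no peak had the cytokine gene as its nearest TSS.

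Il6 (ENSMUSG00000025746, chromosome 5, 30339701 to 30346508, plus strand) had 1 peak, from 30362591 to 30362843, 23016 bp downstream of its TSS. It scored 5.96, at the percentile 18.9, and with 253 bp was as narrow as any peak of the list. It was the closest to Il6 of all annotated TSS and held no RUNX hexamer, and upstream of Il6 the first peak was 277028 bp away.

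Il10 (ENSMUSG00000016529, chromosome 1, 132916422 to 132921551, plus strand) had no peak. The first downstream peak, from 132993327 to 132993875, scored 34.2 and lay 77179 bp from the Il10 start, at 543 bp from a TSS of Mapkapk2, a kinase gene of the p38 pathway. Upstream, the first peak centre was 2187117 bp away. Il10 therefore lay in a stretch of 2264 kb without a peak centre, which ranks 197 by length among 15101 stretches between neighbouring peaks, whose median is 34.1 kb. The starts of 15 protein-coding genes fell in this stretch, among them the cytokine genes Il19, Il20 and Il24 and the complement regulators Cd55 and C4bp.

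Il15 (ENSMUSG00000031712, chromosome 8, 84855536 to 84927121, minus strand) is the longest of the 10 genes, with 71586 bp, and had a single strong peak. It ran from 84907119 to 84907618 in intron 1, was centred 19753 bp downstream of the TSS and scored 43.6, at the percentile 90.8. This was the highest score among the 8 peaks whose nearest TSS was a cytokine gene's, and no other protein-coding TSS lay in the window. The next peak upstream of the gene was 370258 bp away. The central 200 bp, chr8:84907269-84907468 on the plus strand of mm9, are shown because they hold the RUNX hexamer 2 times, with the middle of 1 of them 2 bp from the peak centre and the other 69 bp from it.
Il15 intron 1 peak: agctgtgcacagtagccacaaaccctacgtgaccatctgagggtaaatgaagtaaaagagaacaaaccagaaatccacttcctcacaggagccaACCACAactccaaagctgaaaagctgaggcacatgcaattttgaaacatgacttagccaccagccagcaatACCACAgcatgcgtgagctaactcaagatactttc

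Il1b (ENSMUSG00000027398, chromosome 2, 129190306 to 129196875, minus strand) was the gene with the most peaks of its own. Of the 5 peaks of its window 4 lay upstream with Il1b as their nearest protein-coding TSS, and no other protein-coding gene starts within 50 kb of Il1b. The closest, from 129198899 to 129199361, was centred 2255 bp upstream and scored 18.01, at the percentile 65.9. The next, from 129206521 to 129207000, lay 9885 bp upstream with a score of 6.85. Those from 129211198 to 129211504 and from 129234164 to 129234484 lay 14476 and 37449 bp upstream and scored 9.16 and 8.49. Among the 4, the peak nearest to the gene thus had the highest score and the only one above the list median. It was also 265 bp from a TSS of Gm14047, a noncoding transcript. The last of the 5, from 129141450 to 129141973, was downstream, scored 13.4 and was nearest to Il1a, the gene of IL-1α, at 6003 bp from its TSS. Of the 4 upstream peaks 3 are shown, those with a RUNX hexamer or its variant, at chr2:129199031-129199230, chr2:129211252-129211451 and chr2:129234225-129234424 on the plus strand of mm9. The hexamer middle lay 11, -39 and 21 bp from the respective centre, and the last of them is the variant.
Il1b peak 2255 bp upstream: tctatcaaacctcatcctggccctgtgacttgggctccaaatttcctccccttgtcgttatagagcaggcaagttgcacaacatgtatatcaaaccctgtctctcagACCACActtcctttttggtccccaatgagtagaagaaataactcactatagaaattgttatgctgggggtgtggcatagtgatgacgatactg
Il1b peak 14476 bp upstream: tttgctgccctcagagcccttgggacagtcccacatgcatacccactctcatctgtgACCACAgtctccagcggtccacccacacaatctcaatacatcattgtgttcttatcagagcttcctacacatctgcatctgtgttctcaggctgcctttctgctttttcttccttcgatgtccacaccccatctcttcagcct
Il1b peak 37449 bp upstream: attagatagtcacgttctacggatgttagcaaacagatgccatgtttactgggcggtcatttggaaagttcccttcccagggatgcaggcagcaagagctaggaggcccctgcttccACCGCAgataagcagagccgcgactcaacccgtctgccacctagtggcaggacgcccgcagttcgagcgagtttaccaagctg

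Tnf (ENSMUSG00000024401, chromosome 17, 35336326 to 35338952, minus strand) lies in the MHC and had the most peaks, 7, but for 0 of them was it the nearest TSS. The window holds the starts of 9 other protein-coding genes, more than for any other of the 10 genes. The strongest peak, from 35329874 to 35330278, scored 21.3. It was centred 8876 bp downstream of the Tnf start and 1308 bp upstream of Ltb, which encodes lymphotoxin β, a cytokine of the same superfamily. At Lst1, a leukocyte gene, peaks scored 15.0 at 122 bp from a TSS and 10.98 at 2369 bp from a TSS. The peak from 35356628 to 35357153 scored 17.3 and lay 17938 bp upstream of Tnf, at 889 bp from the TSS of Gm16181. At Ddx39b, a helicase gene of mRNA export, 2 peaks scored 9.16 and 5.36, and a peak 94 bp from a TSS of Prrc2a scored 6.45. No Tnf window peak reached the upper quartile of the list, 23.2.

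**Figure D3:**
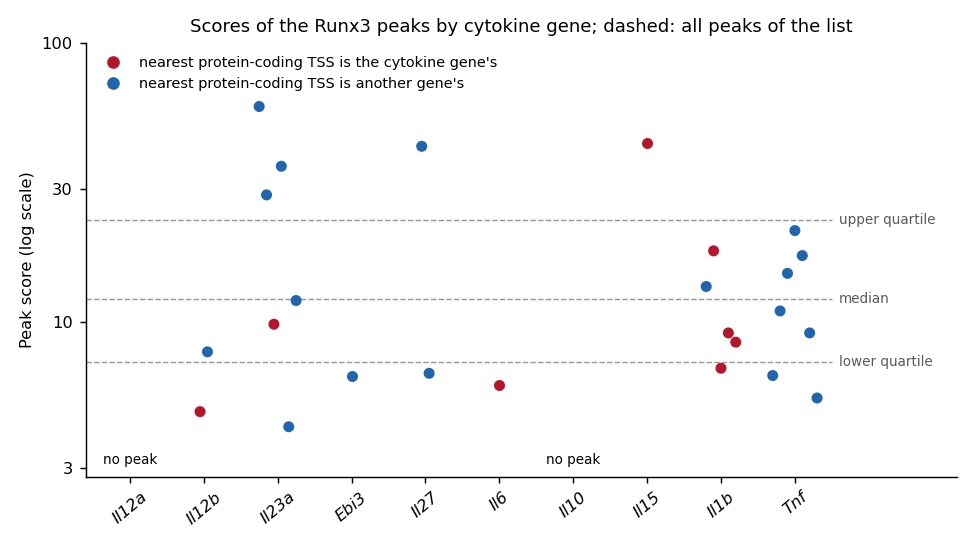
Score of each of the 25 peaks (y axis, log scale) by cytokine gene (x axis), in red where the gene holds the nearest protein-coding TSS and in blue where another gene does. Dashed lines are the lower quartile, 7.20, the median, 12.1, and the upper quartile, 23.2, of all 15121 peaks; among the red points the Il15 peak at 43.6 stands above the upper quartile, and the others are at or below 18.01.

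In score the peaks of the cytokine windows ran from 4.23 to 59.1 with a median of 9.84. The list median was reached by 10 of the 25 and the upper quartile by 5, of which 3 were in the Il23a window, 1 in that of Il27 and 1 in Il15. At the lower end, 8 of the 25 were below the lower quartile of 7.20. A peak that reached the median was present for 5 of the 10 genes, Il23a, Il27, Il15, Il1b and Tnf, against 47.3% of all protein-coding genes. Peak widths ran from 253 to 756 bp with a median of 383 bp, where the list median was 406 bp.

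Gene density differed widely between the windows. The windows of Tnf, Ebi3, Il23a and Il27 hold the starts of 9, 7, 6 and 4 other protein-coding genes, while that of Il6 holds 1 and the other 5 hold none. All 4 genes of the first kind had a peak, 16 in all, and for 1 of these peaks the cytokine gene was the nearest. The 6 genes with at most 1 neighbour had 9 peaks, and the cytokine gene was the nearest for 7 of them. Over all protein-coding genes, a peak was found for 76.9% of the 6151 with 4 or more neighbours and for 37.5% of the 3915 without any. Of the 5 cytokine genes without a neighbour 3 had a peak. This division by neighbours was made after the values were seen, and its part in the counts was not tested. Per 100 kb of window, Tnf had 6.82 peaks, Il23a 5.89 and Il1b 4.69, at the percentiles 98.3, 97.0 and 93.6 of all protein-coding genes, whose median was 0.880. Il27 had 1.89, Il12b 1.75, Ebi3 0.958, Il6 0.936 and Il15 0.583. The median number of peaks over all protein-coding genes was 2 with 4 or more neighbours and 0 without any. Among the cytokine genes, Tnf had 7 peaks with 9 neighbours, Il23a 6 with 6 and Il27 2 with 4. Ebi3 had 1 peak with 7 neighbours, Il6 1 with 1, and Il1b 5, Il12b 2 and Il15 1 with none. Il12a and Il10 had neither a peak nor a neighbour.

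**Figure D4:**
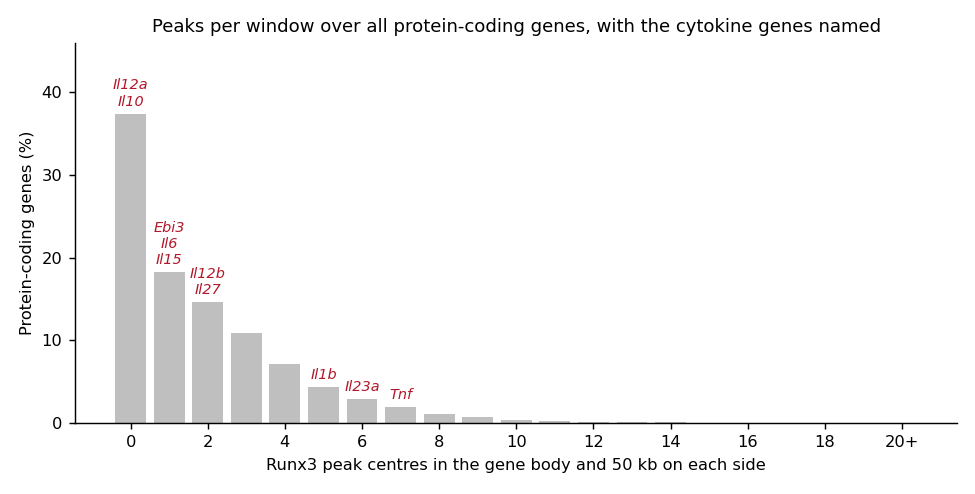
Share of all 22367 protein-coding genes (y axis, %) by number of Runx3 peak centres in the gene body and 50 kb on each side (x axis), with the cytokine genes written above their number. No peak was found for 37.4% of the genes and for Il12a and Il10, and 11.7% of the genes had at least as many as the 5 of Il1b.

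RUNX hexamers were searched on both strands of mm9. TGTGGT was present within the 200 bp around the centre of 12 of the 25 peaks, or 48%, with a 95% interval by Wilson's method of 30.0% to 66.5% for counting error alone. Of all peaks 41.8% held it there, and of 14881 windows of the same size 10 kb downstream of a peak and free of peaks 16.0% did. It was in 4 of the 8 peaks nearest to a cytokine gene, at Il23a, Il15 and 2 of Il1b, and in 8 of the 17 others. The variant TGCGGT was in 4 of the 25, at the most distal upstream Il1b peak, 2 Il23a window peaks and a Ddx39b peak of the Tnf window, against 13.9% of all peaks and 1.61% of the windows. TGACGT, a hexamer assigned to the DC factor zDC (Zbtb46), was in 1 of the 25, in 5.89% of all peaks and in 1.87% of the windows. The composite GGAANNGAA, a form to which PU.1 binds with IRF4 or IRF8, was in 3 of the 25, of which 2 were upstream Il1b peaks. It was in 9.23% of all peaks and in 6.75% of the windows. TGANTCA, the element of AP-1 factors, was in 1 of the 25, in 7.09% of all peaks and in 5.56% of the windows. No pattern contains another, but neighbouring matches may share bases. The downstream windows were not matched to the peaks for GC content or number of CpG, and TGCGGT and TGACGT each contain a CpG. For all patterns in these 200 bp the interval on 25 peaks includes the share of all peaks. The intervals treat the peaks as independent, although 7 lay in the Tnf window, 6 in that of Il23a and 5 in that of Il1b. They are given as a description, and no difference was tested.

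**Figure D5:**
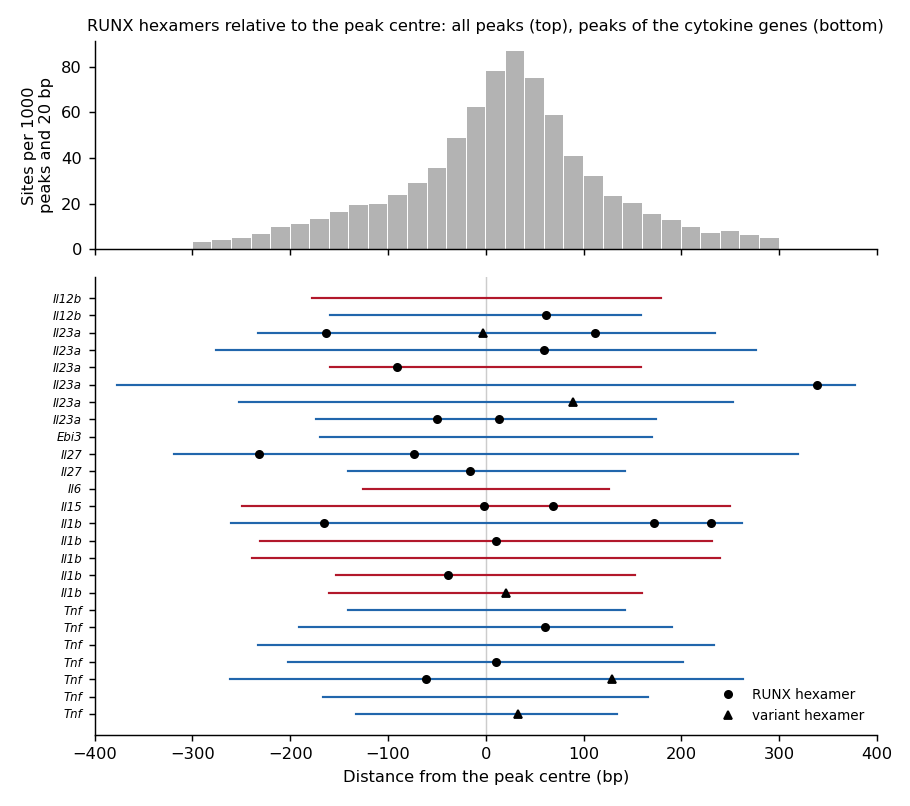
Top, number of TGTGGT sites per 1000 peaks in bins of 20 bp (y axis) by distance of the site from the peak centre in bp (x axis) over all peaks. Bottom, the 25 peaks at the cytokine genes as lines, red where the cytokine gene holds the nearest TSS, with TGTGGT as dots and TGCGGT as triangles; 14 of the 21 TGTGGT sites lie within 100 bp of the centre, and 2 are in the Il15 peak.

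The position of the hexamer was not symmetric around the centre of the called region. Over all 12274 TGTGGT sites in peaks the median offset was 22 bp towards higher coordinates, and for the 21 sites in peaks of the cytokine windows it was 10 bp.

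The receptors of the same cytokines were counted for comparison, without a test. Of 16 receptor genes 15 had a peak by the same rule, against 62.6% of all protein-coding genes. The exception was Il15ra, whose nearest peak was 51743 bp from its TSS. A peak in the body was found for 9 of the 16, against 23.2% of all protein-coding genes, and within 1 kb of a TSS for 6, against 24.9%. For 11 of the 16 a window peak had the receptor gene as its nearest protein-coding TSS, against 35.5%. The median number per window was 3.5, against 1.5 for the cytokine genes and 1 for all protein-coding genes. At the TSS the peak of Il12rb2 scored 59.1, that of Il6ra 31.3, of Il1r2 27.5, of Il2rg 21.5, of Tnfrsf1a 5.36 and of Il10rb 4.73. Tnfrsf1a was counted through the TSS of another transcript, as no peak centre was closer than 1001 bp to the gene start. By the same limit Il12b, with a peak centre 1029 bp from its TSS, was not counted. Receptor genes are longer, with a median of 30277 bp against 6251 bp for the cytokine genes and 15427 bp for all protein-coding genes. Their bodies and windows are wider accordingly, and no share among genes of like length is given for them. Per 100 kb the medians were 2.96 for the receptors and 1.36 for the cytokine genes.

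For all protein-coding genes the shares were 62.6% with a peak in the window, 23.2% in the body, 24.9% within 1 kb of a TSS and 35.5% with a window peak nearest to their own TSS. Of 11 cytokine genes typical of T cells 6 had a peak in their window, 0 had 1 in the body and 0 within 1 kb of a TSS, and Il2, Il3, Il13, Il17a and Il22 had none. For 3 of the 11 a window peak was nearest to their own TSS. Of 15 other cytokine genes of myeloid cells 11 had a peak, 7 had 1 nearest to their own TSS, 4 had 1 in the body and 3 within 1 kb of a TSS. Those 3 were Tgfb1, with scores up to 20.6 there, Il16, with 13.4, and Csf1, with 2.67. The Il16 peak lay at the TSS of a shorter transcript, as no peak was closer than 85908 bp to the start of the gene. Il33, Il19, Il20 and Il24 had none, and the latter 3 share the empty stretch of Il10. The median distance from the gene start to the nearest peak was 9572 bp for the 10 cytokine genes, 5901 bp for the receptors, 51292 bp for the T cell cytokines, 20460 bp for the other myeloid cytokines and 32504 bp for all protein-coding genes.

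The limit of 50 kb excluded some peaks narrowly. Just inside it were the peak near Il1a at 48595 bp from Il1b and the Cs peak at 46870 bp from Il23a. Just outside were another near Il1a at 50410 bp from Il1b, with a score of 19.8, a peak at 52560 bp from Ebi3, the weak one upstream of Il12a, and peaks at 54395 bp from Il27 and at 56435 bp from Il12b. The last of these scored 36.1 and was centred 30 bp from a TSS of Ublcp1. Beyond Tnf, a peak with a score of 72.7 lay 57214 bp away, nearest to the MHC-I gene H2-D1.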

How the data were processed

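Runx3 ChIP-seq of sorted splenic CD4+ DC, with 2 Runx3 immunoprecipitates and 2 inputs, was analysed from the deposited peak list. Per the labels and methods, the authors aligned 50-base reads uniquely to mm9 with bowtie and called regions with MACS2 on the pooled samples, and CASAVA 1.8 is also named. The versions of bowtie and MACS2, the threshold and the handling of duplicates are not given in the sources used here. The deposited score of each peak is the value MACS2 wrote, which was compared only between peaks of this list.

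Peaks were placed by their centre, counted from 1, on NCBIM37, the assembly of mm9, with GENCODE M1 genes of chromosomes 1 to 19, X and Y. The nearest TSS was taken from protein-coding transcripts, and introns were numbered in the longest of them. Counts of genes with a peak within 1 kb of a TSS used all annotated transcripts of protein-coding genes. Peak ends did not exceed the chromosome lengths, and the numbers in the peak names had no gap. Motifs were searched in the 200 bp around the centre. Counts are set beside the same counts over all genes or peaks, and no test was run, as no value exists per sample.

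The members, lists and rules were chosen with earlier results of these data known. All members were named, with each neighbour holding the nearest TSS of a peak, and list genes with a peak at a TSS or none in the window. The lists were receptors of these cytokines, T cell cytokines and other myeloid cytokines, and Il36g was matched as Il1f9 through RefSeq synonyms. The alternatives were score thresholds, distances, joining of close peaks, overlap by any base, other TSS and other motif windows. The counting and the motif search were tested on simulated data. Scripts ran in Python 3.11.15 with pandas 2.3.3, scipy 1.17.1 and numpy 2.4.6, and figures were drawn with matplotlib 3.10.9.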

Additional observations from a re-analysis of the deposited data

How the results depend on the processing

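The count of 8 genes with a peak was unchanged when peaks closer than 300 bp were joined, when any base of the peak counted and with 20 kb on each side (50.4% of all protein-coding genes), and was 7 with 10 kb (43.4%) and 10 with 100 kb (72.1%). It fell to 5 for scores at or above the list median (47.3%), to 3 for the upper quartile (30.99%), where the share is that of all genes, and to 5 for window peaks whose nearest protein-coding TSS is the member's (35.5%). The 25 peaks became 10 at or above the median score, 5 at or above the upper quartile, 9 within 10 kb, 14 within 20 kb and 45 within 100 kb. Genes with a peak within 1 kb of a TSS numbered 0 at the median score (13.5% of all protein-coding genes), at the upper quartile (6.66%) and with joined peaks (24.9%), but 1 when any base of the peak counted (25.5%), which is Il12b, and 2 with a limit of 5 kb, where the share of all protein-coding genes was 31.1%. The gene body count was 1 at the median score (13.4%) and at the upper quartile (7.53%). At the upper quartile these counts of 0 and 1 of 10 are near the shares of all genes. Peaks nearest to a member's TSS numbered 8 with 1 TSS per protein-coding gene and 4 with the TSS of all annotated transcripts, since noncoding genes or pseudogenes start nearer to the upstream Il1b peaks. TGTGGT was in 60% of the whole peaks (54.0% of all peaks), in 60% of those at or above the median score (44.6%) and in 24% in the 100 bp around the centre, where all peaks had 27.99%. A window moved by the median offset of the hexamer, an alternative chosen after seeing the data, gave 48% (42.3%). Against all annotated genes the share with a peak in the window was 53.1%. No paired analysis was possible because the list holds 1 pooled value per peak. Reads per repeat were not analysed here, so a weak peak carried by 1 repeat cannot be told apart from one present in both, and the 8 peaks below the lower quartile, among them the upstream Il12b peak and the Il6 peak, are weak calls of the list.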
